A study of Irpex lacteus with 9 samples.

Results

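The genes described here copy DNA and package it in *Irpex lacteus*, a white-rot fungus that degrades the lignin and polysaccharides of plant cell walls. A gene was taken when its KEGG pathway annotation named DNA replication, or when its Swiss-Prot annotation began with the name of histone H1, H2A, H2B, H3 or H4, with a mean of at least 10 counts over the 9 libraries. Of 19212 genes, 83 matched the annotation and 67 reached the minimum, 46 by the pathway, 21 by the histone name and 0 by both. The fungus was grown on wheat straw to which distilled water, ammonium chloride (NH4Cl) or sodium nitrate (NaNO3) was added, with 3 libraries per group, to ask how the inorganic nitrogen source affects the fermentation. All 3 groups share the straw, and the labels give no strain, dose or time. The organism field names *Irpex lacteus*, which is followed here, while the design text names another fungus, *Tricholoma album*. No label says whether the 3 libraries of a group came from separate cultures, so p-values measure only the spread between these samples, which may be technical.

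Before a cell divides, its chromosomes are copied at replication forks. The MCM helicase opens the duplex, replication protein A coats the single strands, polymerase alpha with primase lays primers, and polymerases delta and epsilon extend them on the sliding clamp PCNA. Histones are made mostly while DNA is being copied, wind the new DNA into nucleosomes, and in fungi are encoded by polyadenylated transcripts, which the poly-T selection used here captures. In yeasts and animals, transcripts of both gene groups peak around the time of DNA synthesis.

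The annotation text was read for every gene that was taken. Core histones made up 20 of the 67, with 7 H2A genes (1 of them the variant H2A.Z), 4 H2B, 5 H3 and 4 H4, and no linker histone H1 matched. A further 40 genes encode proteins of the fork. The other 7 matched by annotation while their product or domain names another function. Of these, the H2A.Z-specific chaperone CHZ1 (BC629DRAFT_1592059) matched by the histone name and not by the pathway. Of the 16 matches under the minimum, 11 had 0 counts in every library. Just inside the minimum stood a DNA ligase 1 model (NewGene_3491) at a mean of 20.6 counts and the RPA subunit 3 gene (BC629DRAFT_1486471) at 26.2, and just outside a ribonuclease H (BC629DRAFT_1301074) at 9.89 and polymerase epsilon subunit C (BC629DRAFT_1302168) at 6.89. All 67 passed the filter on low counts, and 14808 genes in all were tested. Library totals ran from 17896230 to 23194078 counts. NH4Cl replicate 3 and NaNO3 replicate 1 stood apart from the rest in the share of counts of 16 lignin-modifying peroxidase genes, at 2.54% and 0.888% against 4.54% to 6.88% in the other 7 libraries, and whether this bears on the histones was not tested. Levels below are CPM, each count relative to its library total after TMM scaling, which corrects for library composition. Changes are log2 fold changes ± SE from edgeR's quasi-likelihood test, and a gene "rose" or "fell" only if its Benjamini-Hochberg adjusted p over all genes tested was under 0.05.

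With NaNO3 the replication and histone transcripts stood mostly above water. The median log2 change of the 67 genes was 0.50, and 58 of them had a positive value, against a median of -0.03 and 47.4% positive values over all genes tested. Without NaNO3 replicate 1 the median of the 67 was 0.31. Of the 67, 4 rose (1.18% of all genes tested did) and 0 fell (3.88% did). Taking an unadjusted p under 0.05 instead, 26 lay higher (10.8% of all genes did) and 0 lower (14.0%). In 22 genes every NaNO3 library lay above every water library and in 3 below, against 14.2% and 18.8% of all genes. In bulk RNA such as this, more cells of a kind and more RNA per cell cannot be told apart.

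With NH4Cl the same genes stood closer to water. Their median log2 change was 0.17, with 49 positive values, beside a median of -0.02 and 47.9% positive values over all genes. This median was 0.02 without water replicate 3 and 0.31 without water replicate 1. Of the 67, 1 rose and 0 fell, while 0.277% and 0.398% of all genes tested did. By an unadjusted p under 0.05, 4 lay higher (7.77% of all genes) and 1 lower (11.0%). The groups did not overlap for 7 genes with NH4Cl higher and 2 with NH4Cl lower, against 11.9% and 16.1%.

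Set directly against each other, the salts differed in the same genes with NaNO3 on the higher side. The median log2 change of NH4Cl against NaNO3 was -0.32, with 12 positive values of 67, while all genes had a median of 0.02 and 51.9% positive values. The median was -0.17 without NaNO3 replicate 1 and -0.51 without NaNO3 replicate 2. By edgeR 0 of the 67 were called, where 0.594% of all genes were called higher and 0.5% lower. By an unadjusted p under 0.05, NH4Cl lay higher in 2 (10.9% of all genes) and lower in 14 (10.2%). DESeq2, an alternative test, called 1 higher and 6 lower, where it called 5.1% and 5.18% of all genes to which it gave an adjusted p. All NH4Cl libraries lay above all NaNO3 libraries for 2 genes and below for 21, against 12.9% and 12.3% of all genes. Each group enters 2 of the 3 comparisons, so these values are not independent of one another.

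Transcripts of the 20 histone genes took 0.296% of all counts in water replicate 1 (95% Wilson interval 0.294 to 0.298), 0.233% in replicate 2 (0.231 to 0.236) and 0.204% in replicate 3 (0.202 to 0.206). In NH4Cl replicates 1, 2 and 3 the share was 0.232% (0.230 to 0.234), 0.266% (0.264 to 0.269) and 0.328% (0.325 to 0.330). In NaNO3 replicates 1, 2 and 3 it was 0.497% (0.494 to 0.5), 0.284% (0.282 to 0.286) and 0.358% (0.355 to 0.360). NaNO3 replicate 1 held the highest share and water replicate 3 the lowest, and the groups overlapped, since NaNO3 replicate 2 lay below water replicate 1. The intervals cover counting error only. After TMM scaling the summed histone level was 2492 ± 488 CPM with water, 2734 ± 294 with NH4Cl and 3657 ± 546 with NaNO3 (SD, n = 3). Every NaNO3 library (3098 to 4189) then lay above every other library (2107 to 3041). By kind, only the summed H3 level separated in this way, with NaNO3 replicate 2 at 1445 CPM and water replicate 1 at 1385. For H2A (636 CPM) and H2B (547 CPM), NaNO3 replicate 2 lay below NH4Cl replicate 3 (668 and 552 CPM). For H4, NaNO3 replicate 2 (469 CPM) lay below water replicate 1 (498 CPM).

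All 20 histone genes had a positive log2 change with NaNO3 against water, from 0.19 to 1.20 with a median of 0.70. Of them 1 rose (1.18% of all genes did) and 12 lay higher at an unadjusted p under 0.05 (10.8%). In 7 the NaNO3 libraries lay wholly above water (14.2%). The alternative tests differed here. DESeq2 called further histone genes higher, where it called 5.89% of all genes to which it gave an adjusted p. They included H2A BC629DRAFT_1725309 (adjusted p = 0.0017) and H2B BC629DRAFT_1597101 (adjusted p = 0.00448). H3 BC629DRAFT_1291504 (adjusted p = 0.00318) and H4 BC629DRAFT_1297779 (adjusted p = 0.0159) were among them too. By limma 0 of the 20 were called. With NH4Cl against water 18 were positive, with a median of 0.23, and 0 were called (0.277% of all genes rose and 0.398% fell). At an unadjusted p under 0.05 there were 0 (7.77% higher and 11.0% lower), and 0 had separate groups (11.9% and 16.1%). DESeq2 and limma also called 0 of the 20 there. That median was 0.08 without water replicate 3, 0.15 without water replicate 2, 0.47 without water replicate 1 and 0.38 without NH4Cl replicate 1. Set against NaNO3, the NH4Cl value was negative for 20 of 20, and the median was -0.42. By edgeR 0 of the 20 were called (0.594% of all genes were called higher and 0.5% lower). Taking unadjusted p-values below 0.05, 5 histones lay lower and 0 higher, beside 10.2% and 10.9% of all genes. The NH4Cl libraries lay wholly below those of NaNO3 for 8 histones and wholly above for 0, beside 12.3% and 12.9%. Without NaNO3 replicate 1, 17 of 20 remained negative and the median was -0.22, while NaNO3 against water stayed positive for 20 of 20 with a median of 0.46.

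**Figure D1:**
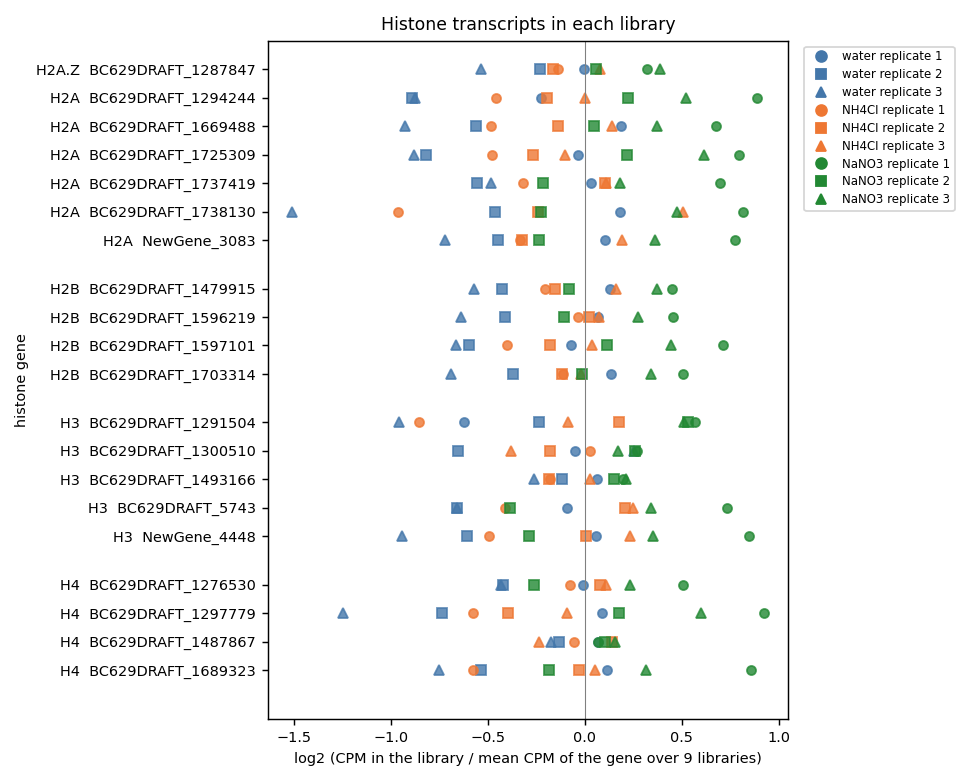
Each row is a histone gene, and each point is 1 library at the log2 ratio of its CPM to that gene's mean over the 9 libraries. Green NaNO3 points lie mostly to the right, with NaNO3 replicate 1 (green circle) the highest library for 17 of 20 genes and water replicate 3 (blue triangle) the lowest for 15.

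Histone H2A, which pairs with H2B on the outside of the nucleosome core, was encoded by 7 genes, and 1 of them was the histone gene that rose. This H2A gene (BC629DRAFT_1294244) stood at 151, 95.4 and 96.1 CPM in water replicates 1, 2 and 3, at 129, 154 and 177 with NH4Cl, and at 327, 206 and 254 with NaNO3. All NaNO3 libraries lay above all others, and the NH4Cl and water libraries overlapped. It rose with NaNO3 by a log2 of 1.20 ± 0.26 (adjusted p = 0.0379), while NH4Cl against water gave 0.43 ± 0.25 (adjusted p = 0.402). The call did not hold without any 1 of 6 libraries, water replicates 2 and 3, NH4Cl replicate 2 or any NaNO3 library (adjusted p from 0.0418 to 0.156 over the 9 fits that leave out 1 library), with log2 values of 1.01 to 1.45.

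A second H2A gene (BC629DRAFT_1725309) followed closely, at 106, 61.4 and 59.0 CPM with water, 77.8, 89.9 and 101 with NH4Cl, and 188, 126 and 166 with NaNO3. Its NaNO3 libraries too lay above all others, with a log2 change of 1.08 ± 0.26 that missed the threshold (adjusted p = 0.0515). The ratio of the first gene's CPM to the second's was 1.42 to 1.75 over the 9 libraries. Whether histone copies of 1 kind are alike enough to share reads was not tested, so values of single copies are uncertain. The third named gene (NewGene_3083) stood at 115 ± 34.5 CPM with water, 129.7 ± 28.4 with NH4Cl and 183 ± 61.4 with NaNO3, with overlapping groups (log2 0.67 ± 0.31, adjusted p = 0.218). The other 3 canonical H2A genes had log2 changes with NaNO3 of 0.58, 0.75 and 0.86, none called. H2A.Z (BC629DRAFT_1287847), a variant placed at promoters in many eukaryotes, had the lowest mean FPKM of the family (32.2) and stood at 15.9, 13.5 and 10.95 CPM with water, 14.4, 14.2 and 16.8 with NH4Cl and 19.8, 16.5 and 20.8 with NaNO3, with a log2 change with NaNO3 of 0.50 ± 0.17 (adjusted p = 0.119).

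Histone H2B, the partner of H2A, was encoded by 4 genes, and edgeR called none. All 4 lay higher for NaNO3 against water at an unadjusted p under 0.05, against 10.8% of all genes. The gene with the highest mean FPKM (BC629DRAFT_1597101, 650.6) stood at 292, 203 and 194 CPM with water, 233, 271 and 315 with NH4Cl and 502, 332 and 418 with NaNO3. The NaNO3 libraries lay above all others, and the change was 0.86 ± 0.24 on the log2 scale (adjusted p = 0.073). The next (BC629DRAFT_1596219) stood at 119, 85.01 and 72.6 CPM with water, 110, 115 and 119 with NH4Cl and 155, 105 and 137 with NaNO3, where NaNO3 replicate 2 fell inside the range of the other groups (log2 0.52 ± 0.22, adjusted p = 0.181). The ratio of its CPM to that of another H2B gene (BC629DRAFT_1703314) was 1.69 to 1.99 over the 9 libraries.

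Histone H3, which with H4 forms the centre of the nucleosome, included the most abundant histone transcript. This H3 gene (BC629DRAFT_1493166) had a mean of 1303 FPKM, a length-normalised level, and made up 20.9% to 33.3% of the summed histone FPKM. It stood at 1215, 1070 and 969 CPM with water, 1025, 1023 and 1182 with NH4Cl and 1332, 1292 and 1345 with NaNO3. The NaNO3 libraries were close together and above all others, but the log2 change was small, at 0.29 ± 0.19 (adjusted p = 0.381), and -0.01 ± 0.19 with NH4Cl. Its share of the histone FPKM was lowest, at 20.9%, in NaNO3 replicate 1 and highest, at 33.3%, in water replicates 2 and 3.

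H3 genes of lower FPKM (18.3 to 285) had log2 changes of 0.34 to 1.11 with NaNO3. The H3 gene BC629DRAFT_1291504 stood at 8.33, 10.9 and 6.59 CPM with water, 7.10, 14.5 and 12.1 with NH4Cl and 19.0, 18.6 and 18.3 with NaNO3. Its NaNO3 libraries agreed closely and lay above all others, and the change with NaNO3 was 1.11 ± 0.27 on the log2 scale (adjusted p = 0.0515). That value crossed the threshold with DESeq2's size factors (adjusted p = 0.0498) and without NH4Cl replicate 1 (adjusted p = 0.0241). NewGene_4448 stood at 137, 86.4 and 68.7 CPM with water, 93.7, 132 and 155 with NH4Cl and 237, 108 and 168 with NaNO3, with overlapping groups and a log2 change of 0.81 ± 0.35 (adjusted p = 0.197). The other 2 H3 genes, both under 20 CPM in every library, had log2 changes with NaNO3 of 0.34 and 0.74.

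The 4 histone H4 genes differed from one another in their spread. The gene BC629DRAFT_1297779 stood at 59.8, 33.8 and 23.8 CPM with water, 37.7, 42.8 and 52.7 with NH4Cl and 107, 63.5 and 85.3 with NaNO3. All NaNO3 libraries lay above all others, and the log2 change was 1.12 ± 0.34 with NaNO3 (adjusted p = 0.0904) and 0.18 ± 0.34 with NH4Cl (adjusted p = 0.815). BC629DRAFT_1487867 was nearly level, at 230, 200 and 194 CPM with water, 211, 241 and 186 with NH4Cl and 230, 235 and 245 with NaNO3 (log2 0.19 ± 0.16, adjusted p = 0.499). BC629DRAFT_1689323 stood at 157, 99.6 and 86.0 CPM with water, 97.0, 142 and 150 with NH4Cl and 262, 127 and 180 with NaNO3, with overlapping groups and a log2 change of 0.73 ± 0.33 (adjusted p = 0.205).

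The 40 genes of the fork had lower levels and smaller median changes than the histones. Their summed FPKM was 212 ± 21.5 with water, against 3781 ± 781 for the 20 histones (SD, n = 3). Their summed level in CPM was 399 ± 44.6 with water, 397 ± 14.5 with NH4Cl and 464 ± 38.6 with NaNO3 (SD, n = 3), and 444 CPM in water replicate 1 lay above 424 in NaNO3 replicate 2. With NaNO3 against water the median log2 change was 0.35, 32 of 40 were positive and 2 rose (1.18% of all genes did). With these 2, 11 lay higher at an unadjusted p under 0.05 (10.8% of all genes). In 12 the NaNO3 libraries lay wholly above water and in 3 wholly below, against 14.2% and 18.8% of all genes. With NH4Cl the median was 0.08, 25 were positive and 1 rose (0.277% of all genes did).

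**Figure D2:**
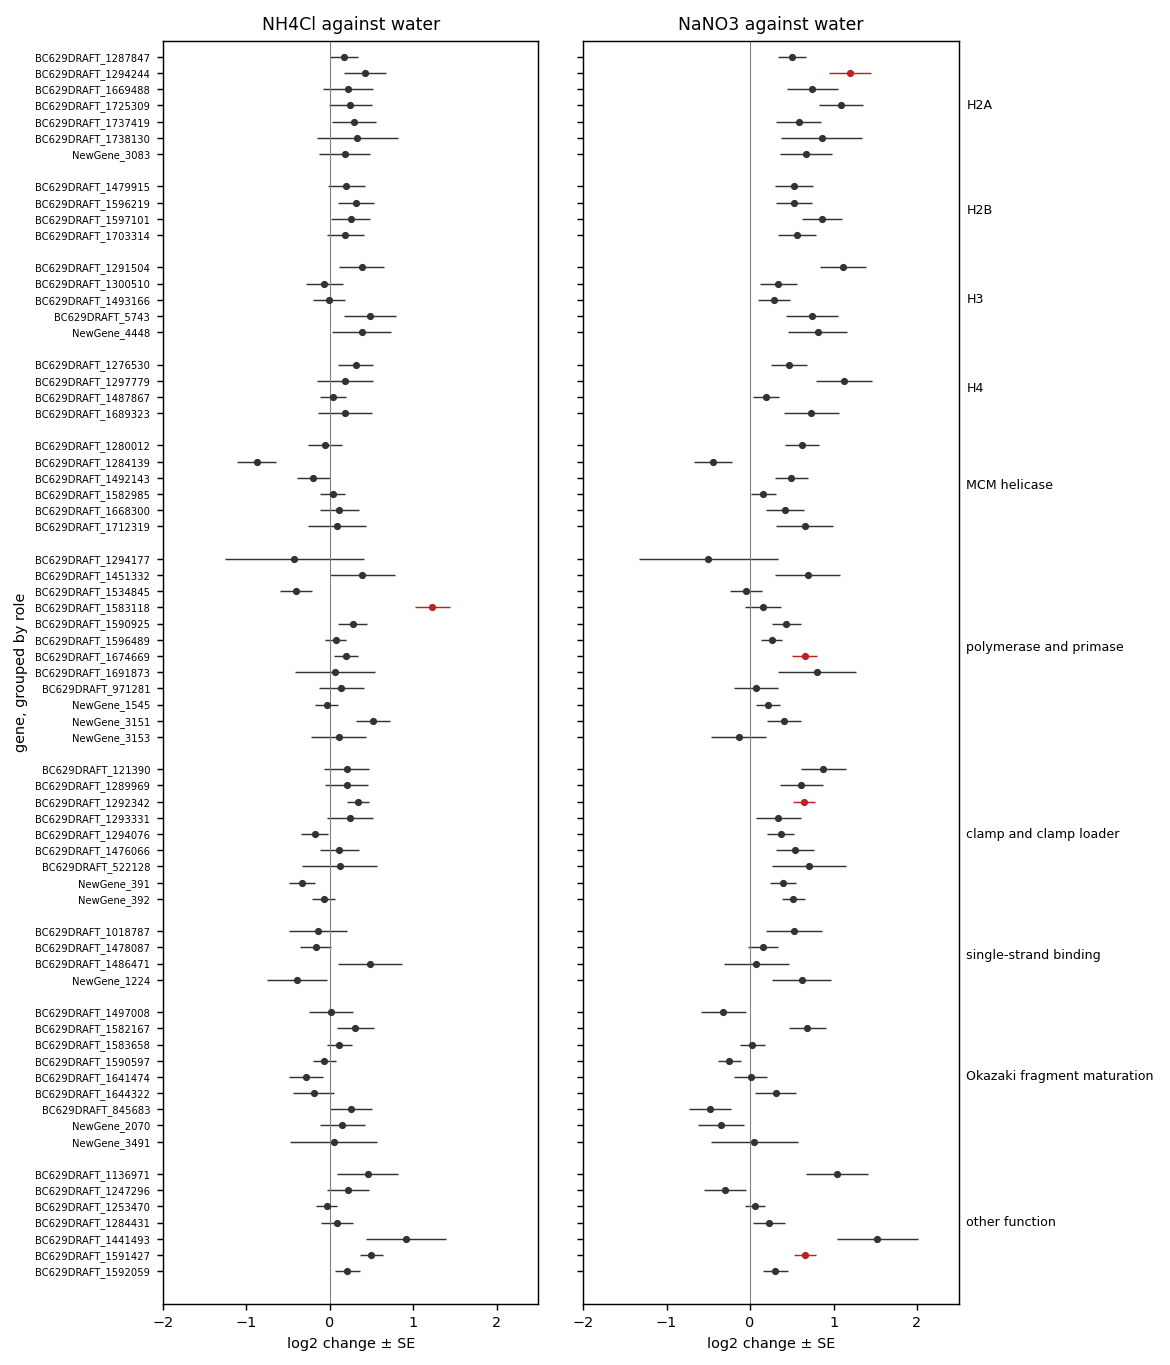
Points are log2 changes with their SE from edgeR, NH4Cl against water on the left and NaNO3 against water on the right, with genes grouped by role and called genes in red. Histones and clamp genes lie to the right of 0 with NaNO3 in every case, while genes of Okazaki fragment maturation lie on both sides, 5 positive and 4 negative.

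The 6 subunits of the MCM2-7 helicase had log2 values of both signs and 0 were called. MCM3 (BC629DRAFT_1284139) stood at 25.7, 25.0 and 25.4 CPM with water, 14.2, 12.1 and 15.1 with NH4Cl and 26.2, 14.1 and 15.4 with NaNO3. The NH4Cl libraries all lay below the water libraries, and so did NaNO3 replicates 2 and 3, while NaNO3 replicate 1 lay above every other library. NH4Cl against water gave -0.88 ± 0.23 on the log2 scale and was not called (adjusted p = 0.1), and NaNO3 against water gave -0.45 ± 0.23 (adjusted p = 0.263), the only negative value among the 6 subunits in that comparison. Without NaNO3 replicate 1, edgeR called MCM3 lower with NH4Cl (-0.83, adjusted p = 0.0359) and with NaNO3 (-0.78, adjusted p = 0.0406), and DESeq2 called it lower with NH4Cl on all 9 libraries (-0.84, adjusted p = 0.0301).

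MCM2 (BC629DRAFT_1280012) and MCM5 (BC629DRAFT_1492143) had positive values with NaNO3. MCM2 stood at 4.47, 3.70 and 3.52 CPM with water, 3.52, 3.42 and 4.27 with NH4Cl and 7.15, 4.73 and 6.13 with NaNO3. MCM5 stood at 14.2, 11.5 and 8.94 CPM with water, 9.61, 9.34 and 11.3 with NH4Cl and 18.8, 14.3 and 15.8 with NaNO3. For both, every NaNO3 library lay above every other library, with log2 changes against water of 0.62 ± 0.20 (adjusted p = 0.106) and 0.50 ± 0.19 (adjusted p = 0.16), neither called. MCM4 (BC629DRAFT_1668300), of similar FPKM to MCM3 (6.94 and 7.03), stood at 19.8 ± 4.50 CPM with water, 21.4 ± 1.58 with NH4Cl and 26.3 ± 7.12 with NaNO3, with overlapping groups (log2 0.41 ± 0.23, adjusted p = 0.299). MCM6 and MCM7 gave 0.16 and 0.65 with NaNO3, neither called.

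**Figure D3:**
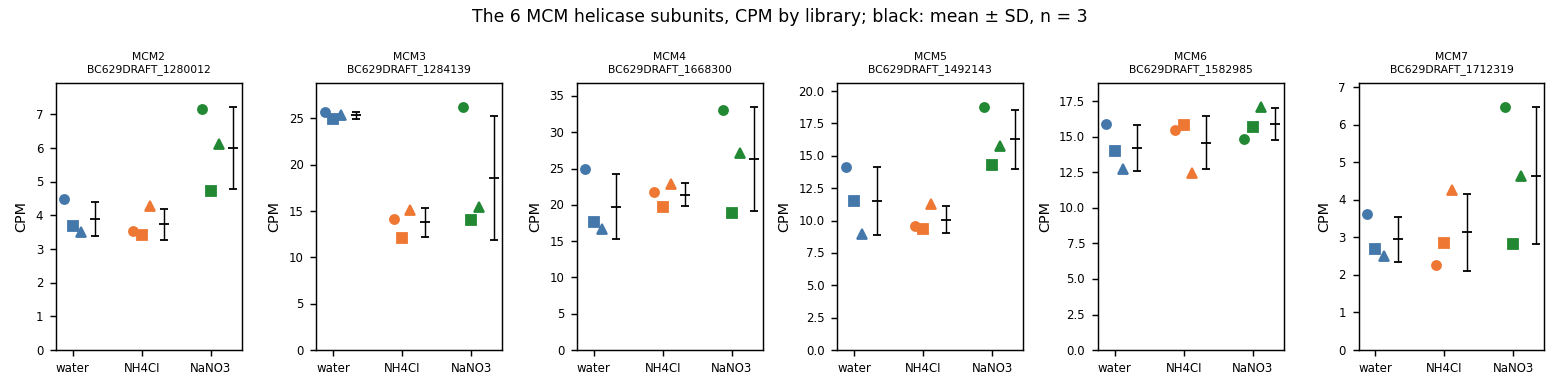
The 6 panels show CPM by library for MCM2 to MCM7, with circles, squares and triangles for replicates 1, 2 and 3 and black bars for the mean ± SD (n = 3). MCM3 is near 25 CPM in all water libraries and at 12.1 to 15.4 CPM in 5 of the 6 salt libraries, and NaNO3 replicate 1 is the highest library for every subunit but MCM6.

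Polymerases and primase, which prime and extend the new strands, made up 12 gene models, of which 1 rose with each salt against water. Of all genes tested 0.277% rose with NH4Cl and 1.18% with NaNO3. Subunit B of polymerase epsilon, the leading-strand polymerase (BC629DRAFT_1583118), stood at 5.58, 4.70 and 4.25 CPM with water, 10.9, 9.40 and 13.8 with NH4Cl and 5.01, 4.56 and 6.63 with NaNO3. All NH4Cl libraries lay above all others, and the water and NaNO3 libraries overlapped. It rose with NH4Cl against water by a log2 of 1.23 ± 0.21 (adjusted p = 0.0452), and NH4Cl against NaNO3 gave 1.07 ± 0.21 (adjusted p = 0.0535). The call was lost without any 1 of 7 libraries, that is any water library, NH4Cl replicate 2 or 3, or NaNO3 replicate 2 or 3, with log2 values of 1.12 to 1.35 and adjusted p from 0.0361 to 0.203 over the 9 fits. Another subunit of the same polymerase (BC629DRAFT_1590925, subunit 3 by KEGG) stood at 7.18 ± 0.52 CPM with water, 8.68 ± 1.81 with NH4Cl and 9.71 ± 0.59 with NaNO3, and its log2 change with NH4Cl was 0.27 ± 0.17 (adjusted p = 0.438).

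Polymerase alpha lays the primers together with primase. Its subunit B (BC629DRAFT_1674669) stood at 22.0, 20.0 and 17.9 CPM with water, 23.1, 23.1 and 22.3 with NH4Cl and 37.2, 29.1 and 28.01 with NaNO3. The 3 groups did not overlap, with water lowest and NaNO3 highest. It rose with NaNO3 by a log2 of 0.65 ± 0.15 (adjusted p = 0.0438), and the call was lost on leaving out any of the 9 libraries (adjusted p from 0.0563 to 0.157, log2 0.52 to 0.78). The catalytic subunit was split over 3 gene models, BC629DRAFT_1596489, NewGene_3151 and NewGene_3153, whose log2 changes with NaNO3 were 0.26, 0.41 and -0.14, none called. Of these NewGene_3151 stood at 6.38, 7.05 and 5.20 CPM with water, below all NH4Cl (7.33, 10.9 and 8.38) and all NaNO3 libraries (9.70, 7.15 and 7.82). The remaining 6 models, for polymerase delta and primase, had log2 changes with NaNO3 from -0.50 to 0.80 and none was called. Primase model BC629DRAFT_1294177 was at 0 CPM in NaNO3 replicate 2 and at 1.25 to 2.70 CPM elsewhere.

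PCNA, the ring that tethers polymerases to DNA, and the replication factor C (RFC) complex that loads it made up 9 gene models, all 9 with a positive value for NaNO3 against water. Their log2 changes ran from 0.34 to 0.88, and the median was 0.54. Of the 9, 6 lay higher with unadjusted p-values below 0.05, beside 10.8% of all genes, and 1 rose (1.18% of all genes did). The counts are of models. RFC subunits 1, 3 and 4 each had more than 1 model, so the 9 may stand for fewer genes. RFC subunit 3 (BC629DRAFT_1292342) stood at 6.78, 7.0 and 5.92 CPM with water, 8.01, 8.20 and 8.74 with NH4Cl and 10.1, 9.74 and 10.96 with NaNO3. The 3 groups did not overlap, with NH4Cl between water and NaNO3. It rose with NaNO3 by a log2 of 0.64 ± 0.13 (adjusted p = 0.0342), and NH4Cl against water gave 0.34 ± 0.13 (adjusted p = 0.208). The call held without NH4Cl replicate 1 or 3 and was lost without any other library (adjusted p from 0.0346 to 0.122, log2 0.58 to 0.72). Another model of RFC subunit 3 (BC629DRAFT_1293331) gave 0.34 ± 0.27 with NaNO3 against water, with overlapping groups (adjusted p = 0.467).

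The large subunit RFC1 was spread over 3 models, which may be pieces of 1 gene. NewGene_392 stood at 20.9, 17.6 and 16.4 CPM with water, 18.1, 18.4 and 15.7 with NH4Cl and 24.9, 26.2 and 27.4 with NaNO3. NewGene_391 stood at 14.2, 13.7 and 10.8 CPM with water, 10.7, 9.97 and 10.01 with NH4Cl and 17.98, 14.3 and 18.5 with NaNO3. In both, NaNO3 lay wholly above the other groups, and in NewGene_391 NH4Cl also lay wholly below water. The NH4Cl against NaNO3 values were -0.59 ± 0.14 (adjusted p = 0.0733) and -0.73 ± 0.16 (adjusted p = 0.0642), not called by edgeR, and DESeq2 called both (adjusted p = 0.00196 and 0.00193). The third model (BC629DRAFT_1294076) was at 12.2, 12.4 and 9.50 CPM with water, 9.55, 8.83 and 11.6 with NH4Cl and 16.2, 13.7 and 14.0 with NaNO3, again with NaNO3 apart (log2 against water 0.36 ± 0.17, adjusted p = 0.213).

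RFC subunit 4 (BC629DRAFT_121390) stood at 3.85, 2.55 and 2.403 CPM with water, 3.47, 2.79 and 3.91 with NH4Cl and 6.56, 3.94 and 5.73 with NaNO3. Its NaNO3 libraries lay above the rest, narrowly in replicate 2, with a log2 change of 0.88 ± 0.27 against water (adjusted p = 0.092). Another model of RFC subunit 4 (BC629DRAFT_522128) gave 0.71 ± 0.44, with overlapping groups (adjusted p = 0.35). PCNA (BC629DRAFT_1476066) stood at 18.6, 14.0 and 10.2 CPM with water, 14.7, 15.1 and 16.5 with NH4Cl and 23.7, 16.3 and 22.2 with NaNO3. NaNO3 replicate 2 lay inside the range of the other groups, and the log2 change was 0.54 ± 0.23 (adjusted p = 0.189).

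Replication protein A, which protects single-stranded DNA, had 4 gene models and none was called. Its largest subunit (BC629DRAFT_1478087) stood at 45.8 ± 7.23 CPM with water, 40.8 ± 1.35 with NH4Cl and 51.0 ± 10.7 with NaNO3, and did not have its highest level in NaNO3 replicate 1, which was at 40.1 CPM (log2 0.15 ± 0.18, adjusted p = 0.642). A further model of that subunit, NewGene_1224, was at 9.97 CPM in NaNO3 replicate 1, while the other 8 libraries stood at 2.39 to 4.62 CPM (log2 with NaNO3 0.62 ± 0.35, adjusted p = 0.314).

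Okazaki fragment maturation, the removal of primers and sealing of lagging-strand pieces, had the median nearest 0 of all roles with NaNO3. Its 9 genes had a median log2 change of 0.01 with NaNO3 and 0.05 with NH4Cl, and 0 were called in either comparison. Only 1 had an unadjusted p under 0.05, and it lay higher with NaNO3, as did 10.8% of all genes. That 1 was the DNA2-type helicase and nuclease (BC629DRAFT_1582167), which cuts long flaps, at 5.84 ± 1.03 CPM with water, 7.24 ± 1.31 with NH4Cl and 9.39 ± 2.04 with NaNO3 (log2 with NaNO3 0.68 ± 0.22, adjusted p = 0.11). A ribonuclease H of KEGG type HI (BC629DRAFT_845683), which digests RNA paired to DNA, ran the other way, at 20.5, 23.8 and 17.9 CPM with water, 18.5, 20.2 and 35.7 with NH4Cl and 13.8, 16.5 and 14.3 with NaNO3. Its NaNO3 libraries lay below all others (log2 against water -0.48 ± 0.25, adjusted p = 0.272). The other named ribonuclease H (BC629DRAFT_1497008) was at 10.2 CPM in NaNO3 replicate 1 and at 15.9 to 25.5 CPM in the rest (log2 -0.32 ± 0.27, adjusted p = 0.494). A flap endonuclease FEN1 gene (BC629DRAFT_1590597) gave -0.25 ± 0.14 with NaNO3, with NaNO3 wholly below water (adjusted p = 0.311). Another FEN1 gene (BC629DRAFT_1641474) gave 0.005 ± 0.20 with NaNO3, with overlapping groups (adjusted p = 0.99). The DNA ligase genes gave values from -0.35 to 0.31.

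The 7 genes of other function include 1 call, a rise with NaNO3 (1.18% of all genes rose). A small protein named after *Schizosaccharomyces pombe* mug134 (BC629DRAFT_1591427), of a family that acts under nutrient limitation in yeasts, stood at 160, 141 and 145 CPM with water, 203, 206 and 221 with NH4Cl and 243, 235 and 225 with NaNO3. The 3 groups did not overlap, with water lowest. It rose with NaNO3 by a log2 of 0.66 ± 0.14 (adjusted p = 0.0368), and NH4Cl against water gave 0.50 ± 0.14 (adjusted p = 0.109), which DESeq2 called (adjusted p = 2.62e-05). The call with NaNO3 held without NH4Cl replicate 1 or 3 or NaNO3 replicate 1, and was lost without any other library (adjusted p from 0.0395 to 0.157). Subunits 1 (BC629DRAFT_1441493) and 4 (BC629DRAFT_1136971) of the vacuolar transporter chaperone, which makes polyphosphate in yeast, had the largest NaNO3 values of the other-function genes, 1.53 ± 0.49 and 1.04 ± 0.37, neither called (adjusted p = 0.103 and 0.131). Subunit 1 was at 64.8 CPM in NaNO3 replicate 1, 19.4 and 30.1 in replicates 2 and 3, and 11.2 to 31.2 elsewhere. A subunit of mitochondrial complex I (BC629DRAFT_1247296), labelled as a replication helicase, was at 59.5 ± 3.81 CPM with water, 69.1 ± 17.4 with NH4Cl and 48.3 ± 13.9 with NaNO3 (log2 -0.30 ± 0.25, adjusted p = 0.499).

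**Figure D4:**
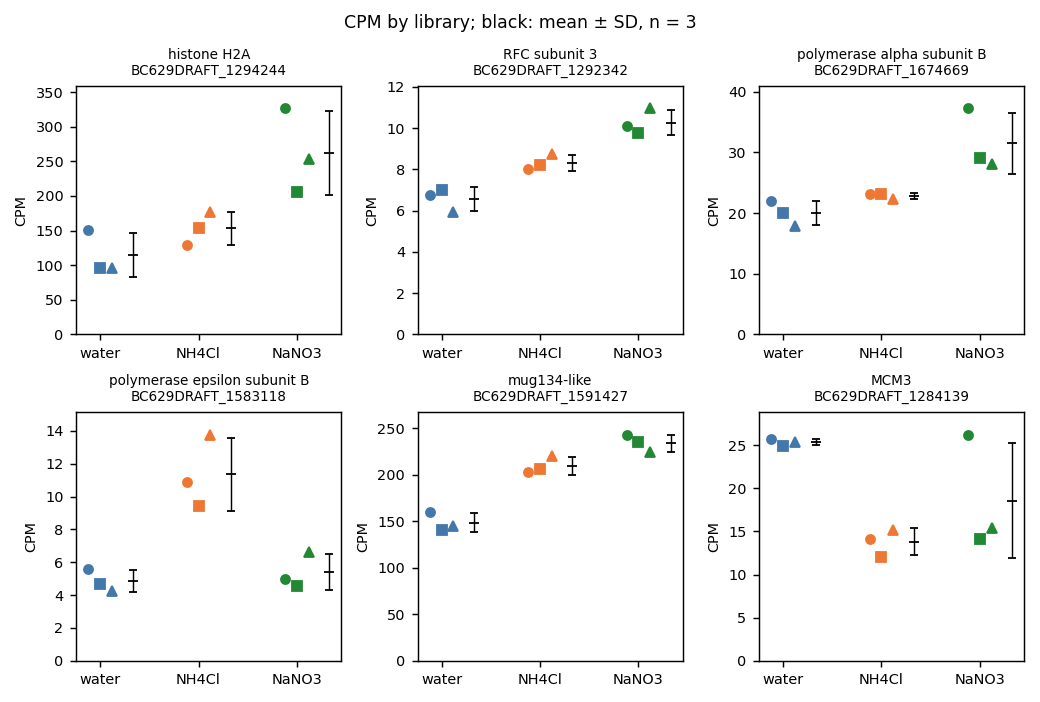
The panels show CPM in every library for the 5 called genes and for MCM3, with circles, squares and triangles for replicates 1, 2 and 3 and black bars for the mean ± SD (n = 3). Polymerase epsilon subunit B is high in the NH4Cl libraries only (9.40 to 13.8 CPM), 4 genes are highest with NaNO3, and MCM3 is highest in the water libraries and NaNO3 replicate 1.

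Taken gene by gene, NaNO3 lay wholly above both other groups in 15 of the 67 (22.4%) and in 912 of all genes tested (6.16%). This held for 6 of 20 histones (30.0%) and 8 of 40 fork genes (20.0%). The 8 fork genes include the RFC1 models NewGene_391, NewGene_392 and BC629DRAFT_1294076, which may be pieces of 1 gene. NaNO3 lay wholly below in 1 (1.49%), ribonuclease H BC629DRAFT_845683, against 5.96% of all genes. Water lay wholly below both other groups in 4 genes (5.97%, against 3.91% of all genes), RFC subunit 3, polymerase alpha subunit B, NewGene_3151 and the mug134-like gene, and wholly above in 0, against 8.0%. NH4Cl lay wholly above in 1, polymerase epsilon subunit B, and wholly below in 1, NewGene_391 (1.49% each), against 4.45% and 3.81% of all genes.

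The libraries of a group did not stand at 1 level. The median log2 deviation of the histones from their own means was 0.08, -0.42 and -0.63 in water replicates 1, 2 and 3, -0.30, -0.08 and 0.11 with NH4Cl, and 0.75, 0.05 and 0.41 with NaNO3. Water replicate 1 thus stood above NaNO3 replicate 2 by this measure, while the median over all genes tested stayed between -0.03 and 0.05 in every library. The fork genes had the same highest and lowest libraries, at 0.41 in NaNO3 replicate 1 and -0.30 in water replicate 3. NaNO3 replicate 1 was the highest of the 9 libraries for 17 histones and 19 fork genes, and for 3043 of the 14808 genes tested. Within groups, the histones were highest in water replicate 1 for 18 of 20, in NH4Cl replicate 3 for 17 and in NaNO3 replicate 1 for 17, so the order of libraries was shared by most histone genes. Without the pair of libraries that stands apart in peroxidase share (NH4Cl replicate 3 with NaNO3 replicate 1), the histone median was 0.47 with NaNO3 and 0.15 with NH4Cl against water, with 20 of 20 positive for NaNO3, and 3 genes rose with NaNO3 (H2A BC629DRAFT_1294244, RFC subunit 3 and the mug134-like gene) while MCM3 fell (log2 -0.76, adjusted p = 0.0276).

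**Figure D5:**
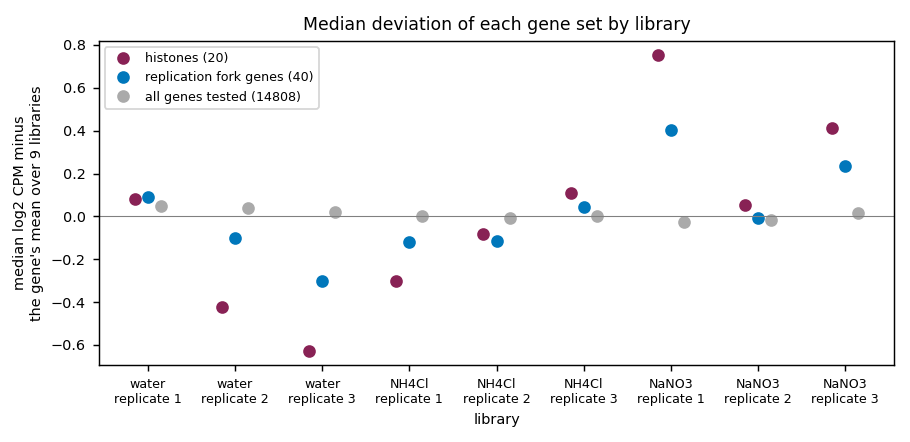
For each library the points give the median, over the 20 histones, the 40 fork genes and all 14808 genes tested, of log2 CPM minus the gene's mean over the 9 libraries. Histone medians run from -0.63 in water replicate 3 to 0.75 in NaNO3 replicate 1, fork medians from -0.30 to 0.41 in the same libraries, and those of all genes from -0.03 to 0.05.

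Genes next to replication in the cell cycle were looked up by product name, and 0 were called in any comparison. Over all genes the shares called ran from 0.277% to 3.88% by comparison and direction. Of genes for deoxynucleotide supply 7 of 8 were tested, with a median log2 change with NaNO3 of 0.41. By an unadjusted p under 0.05, 4 lay above water (10.8% of all genes) and 1 below (14.0%). The small chain of ribonucleotide reductase (BC629DRAFT_1529617), the enzyme that makes deoxynucleotides, stood at 98.0, 55.6 and 43.0 CPM with water, 80.7, 99.8 and 117 with NH4Cl and 207, 111 and 160 with NaNO3, where NaNO3 replicate 2 lay inside the NH4Cl range (log2 with NaNO3 1.28 ± 0.34, adjusted p = 0.0656). Its large chain (BC629DRAFT_1675115) gave 0.92 ± 0.24 (adjusted p = 0.0627) and thymidylate synthase (BC629DRAFT_1580692) 0.61 ± 0.25 (adjusted p = 0.178). A second small chain (BC629DRAFT_1291364) gave -0.09 ± 0.27 with NaNO3 and -0.76 ± 0.27 with NH4Cl, neither called (adjusted p = 0.863 and 0.183).

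Origin licensing and firing genes, 9 of 12 tested, had a median of 0.41 with NaNO3. At an unadjusted p under 0.05 there were 0, against 10.8% of all genes higher and 14.0% lower. CDC6 (BC629DRAFT_1683883) among them gave 0.55 ± 0.29 (adjusted p = 0.277). Mitotic cyclins and cyclin-dependent kinase 1, 5 genes, had a median of 0.48 with NaNO3 and 0.20 with NH4Cl. A cdc13-type cyclin (BC629DRAFT_1586998), which in *S. pombe* drives entry to mitosis, gave 0.62 ± 0.19 with NaNO3 (adjusted p = 0.0886). With NH4Cl this cyclin gave 0.517 ± 0.185 (adjusted p = 0.181). The other cdc13-type cyclins gave 0.53 and 0.475 with NaNO3. The cyclin-dependent kinase 1 genes BC629DRAFT_1582696 and BC629DRAFT_1724180 gave 0.06 and 0.15 with NaNO3. Histone chaperones outside the 67, 4 genes, had a median of 0.03 with NaNO3. CHZ1, a histone chaperone within the 67, gave 0.30 ± 0.15 with NaNO3 (adjusted p = 0.255). Cohesin and condensin, 13 of 14 tested, had a median of 0.14 with NaNO3.

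Over the 9 libraries, the profile most like the mean standardized histone profile among genes outside the set was that of the ribonucleotide reductase small chain BC629DRAFT_1529617 (Pearson r 0.987 of log2 CPM). Next came BC629DRAFT_1289031 (r 0.978) and NewGene_2763 (r 0.977), neither with a named product. The libraries of a group share their treatment and each library its scaling, and the values describe likeness only. Within the set, PCNA (r 0.957) and the DNA2-type helicase (r 0.968) were among the closest fork genes, while MCM3 (r -0.10) and polymerase epsilon subunit B (r 0.09) were near 0 and ribonuclease H BC629DRAFT_1497008 was at -0.68.

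In the authors' deposited table, made with DESeq2 with an FDR limit of 0.01 and a minimum fold of 2, 3 of the 67 genes are listed as higher with NaNO3 than with water. They are the H3 gene BC629DRAFT_1291504 and the H2A genes BC629DRAFT_1294244 and BC629DRAFT_1725309, at deposited log2 values of 1.14, 1.23 and 1.11. The authors' deposited table lists polymerase epsilon subunit B (BC629DRAFT_1583118) as higher with NH4Cl than with water (deposited log2 1.26) and, in the comparison of the salts, as lower with NaNO3 (deposited log2 -1.08). How many of all genes were listed by the same limits was not counted, so these numbers stand without a background share.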

How the data were processed

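Polyadenylated RNA of 9 libraries (3 groups of 3) was sequenced. The submitters' processing notes name HISAT2 and StringTie; versions and the genome build are not given in the sources used here. The authors deposited whole-number counts and FPKM per gene, in 1 table with annotation and, per the file headers, DESeq2 log2 fold changes and adjusted p-values in other columns, called with an FDR limit of 0.01 and a minimum fold of 2. Genes are named by locus tag, or as new genes (10 of the 67). No strand setting is given, so overlapping genes cannot be told apart.

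Counts were tested with edgeR 4.0.16 in R 4.3.3 (filterByExpr, TMM, glmQLFit, glmQLFTest), all 9 libraries in 1 fit without a block, over all 14808 genes that passed, with Benjamini-Hochberg adjustment. The SE is the unshrunk log2 change divided by the square root of F. CPM used TMM-scaled totals; replicate variation (square root of the common dispersion) was 0.317. The FPKM carry the authors' own scaling and serve only to rank levels between genes and for limma 3.58.1 on log2(FPKM + 1), which understates changes of low genes. DESeq2 1.42.0, its size factors, no low-count filter, a replicate block and leaving out libraries were the other alternatives. The tests were checked on simulated counts.

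Genes, roles, neighbouring lists and tests were chosen with earlier results of these data known. Full values are given for every called gene and the 3 of lowest unadjusted p in each comparison. They are also given for the 2 of highest mean FPKM in each role and every gene with 1 group wholly above or below both others. Other genes given singly were chosen after their values were seen. Those include H2A.Z, CHZ1, DNA2, FEN1, the vacuolar transporter chaperone subunits, MCM6, MCM7 and single neighbouring genes. Some matches were dropped from the neighbouring lists before their statistics were computed, since they are other proteins: CDC73, the *S. pombe* cell division control protein 7 kinase, and SMC5 and SMC6.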

Additional observations from a re-analysis of the deposited data

How the results depend on the processing

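The positive direction of the histones with NaNO3 against water held for 20 of 20 genes in every setting tried, and for 16 to 20 of 20 with NH4Cl. The count of genes called was far less steady. Of the 67, edgeR called 1 for NH4Cl against water, 4 for NaNO3 against water and 0 for NH4Cl against NaNO3, where DESeq2 called 3, 13 and 7 and limma on log2(FPKM + 1) 0, 0 and 0. Without the low-count filter the NH4Cl count was 0, and without both NH4Cl replicate 3 and NaNO3 replicate 1 it was 2. Leaving out 1 library at a time gave 0 to 2, 0 to 4 and 0 to 0. Over all genes tested the counts were 100, 749 and 162 by edgeR and 1198, 1938 and 1418 by DESeq2. For NaNO3 against water limma called 414, and without the filter 48 were called for NH4Cl against water. Without both libraries the counts were 765, 1102 and 810. With 1 library left out they ran 0 to 365, 0 to 700 and 0 to 535. A left-out library leaves fewer samples, and the counts went both up and down. NH4Cl against water had 365 genes called without NaNO3 replicate 1 and 0 without water replicate 1. The cause of these differences was not tested. Correlations of same-numbered deviations from the group mean ran from -0.28 to 0.286, and those of other pairs between groups from -0.415 to 0.46. In groups of 3 such deviations sum to 0, so the correlations cannot tell whether replicate numbers pair the samples. With the replicate block 0, 0 and 0 of the 67 were called and 0, 0 and 3 of all genes. Each of the 93 values for 31 named genes was set beside its value under every alternative. In 1323 of these pairs the call was unchanged. Of those pairs 26 had changed sign, all called in neither setting. Among the 67 genes the widest SE against water was 0.83 on the log2 scale, for primase BC629DRAFT_1294177, which was at 0 CPM in 1 library.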
